A study of Mus musculus with 4 samples.

Results

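Chromatin modifiers and remodellers are the enzymes, chaperones and structural proteins that set how DNA is packed: they move nucleosomes, deposit and exchange histones, and write, read or erase acetyl and methyl groups on histones and DNA. In dividing cells the histone chaperones and the enzymes that copy DNA and histone methylation work at the replication fork, while Polycomb, acetyltransferase and methyltransferase complexes help hold a cell to its lineage. In the stomach, as in other renewing epithelia, dividing gland cells supply the non-dividing surface cells. The genes described here were chosen by symbol, as the rows of the deposited table whose GENCODE name starts with a stem such as Hdac, Kdm, Kmt, Smarc, Chd, Cbx, Hmgb, Prmt, Asf1, Nap1 or Phf followed by a number, without the Phf11 family. The rule found 40 members among 2701 listed genes.

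The groups were Lats1/2 KO (genotype Lats1fl/fl;Lats2fl/fl;Lgr5-CreER, 2 libraries) and WT (Lats1fl/fl;Lats2fl/fl without Cre, 2 libraries), all on C57BL/6 and sampled 8 weeks after tamoxifen; ages are not given. LATS1 and LATS2 are the Hippo kinases that restrain the coactivators YAP and TAZ, and all mice carried both floxed genes. Lgr5-CreER recombines in Lgr5-positive gland-base stem cells and their progeny alone, and the KO mice are the ones that carry the allele, so effects of the allele and of the deletion cannot be told apart. RNA came from cryosections of the pylorus, so each level averages recombined and unrecombined epithelium and the tissue beneath it, and fewer cells of a type cannot be told apart from less RNA per cell. Whether the libraries of a group came from separate animals is not stated, so p-values measure the spread between libraries.

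The deposited table ends at an adjusted p-value of 0.05, so every gene in it had already been called different by the authors. An estimated 13141 genes were tested by them and 20.6% are listed. Listed genes held 13413629 and 14225132 counts in the Lats1/2 KO libraries and 14315314 and 17689207 counts in the WT libraries. Gene positions are on GRCm38. Levels are given as normalized counts, that is counts divided by the authors' size factors. Lats1 had 943 and 1129 normalized counts in Lats1/2 KO 1 and 2, against 2152 and 1974 in WT 1 and 2, so the direction matched the labels; Lats2 has no row. Of 12 gastric epithelial markers 6 were listed, with Gkn1 and Gkn2 highest, but the fibroblast genes Col3a1 and Col1a2 and the endothelial gene Kdr were listed too. The listed epithelial markers, all lower, summed to 2544250 and 2130710 normalized counts in KO 1 and 2, against 4625680 and 4953340 in WT 1 and 2. Gkn1 and Gkn2 held most of this sum and fell 2.10-fold and 2.16-fold. Tff1 and Muc5ac fell 1.88-fold each, Krt8 1.52-fold and Cdh1 1.43-fold. The fibroblast pair summed to 6867 and 5752 in KO and 9237 and 12196 in WT. Of 5 pancreas markers 2 were listed: Cela1, an elastase gene, rose, at 7783 and 9962 in KO and 5368 and 3624 in WT, and Cela2a was at 3.62 and 0.782 in KO and 6.31 and 215 in WT, high in WT 2 alone. Markers of smooth muscle, T, B, myeloid, erythroid and nerve cells had no row and so no values here.

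Among the 40 members, 30 rose and 10 fell in the Lats1/2 KO pylorus by the authors' deposited table. That is 75.0% higher, where 42.9% of all listed genes were higher and 57.1% lower. The members' median log2 fold change was 0.88, against -0.50 over all listed genes. Rises were also the larger changes: 16 members (40%) reached a log2 fold change of 1, as did 24.6% of listed genes, and none fell that far, while 15.5% of listed genes did. The risers' median of 1.14 was near that of all listed risers (1.09), and the fallers' median of -0.54 was smaller than that of all listed fallers (-0.73).

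**Figure D1:**
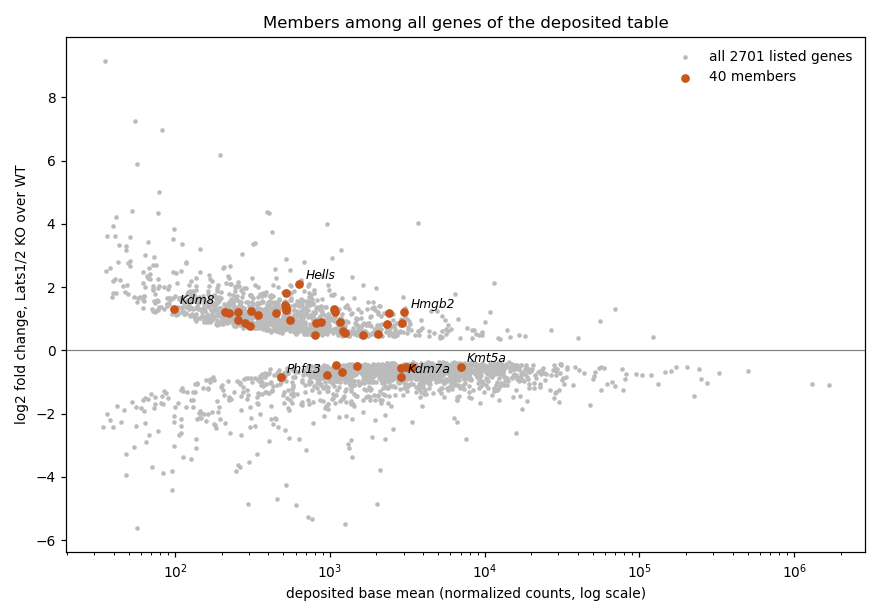
Log2 fold change of Lats1/2 KO over WT (vertical axis) against the deposited base mean on a log scale (horizontal axis), with 1 point per listed gene: grey for all 2701 genes, orange for the 40 members. The gap around 0 is where the authors' threshold removed genes; 30 members lie above it and 10 below, and all 10 fallers lie above -1.

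A test on the counts adds little to these calls, because the rows were selected for a difference. edgeR's quasi-likelihood test on the authors' size factors called 40 of 40 members and 99.9% of all listed genes, and the libraries of the 2 groups did not overlap in 40 of 40 members and 99.9% of listed genes. With 2 libraries a group, an exact permutation test of a single gene cannot go below p = 0.333. TMM scaling computed from the listed genes raises log2 fold changes by a median of 0.36. It assumes that most genes do not change, which a table of called genes does not meet. Falls thus shrink and rises grow, so calls with TMM scaling, here and below, cannot decide which changes hold. With TMM scaling all 30 rises stayed past an edgeR adjusted p of 0.05. Over all listed genes 1157 (42.9%) were called higher on the authors' size factors and also with TMM scaling. Of the 10 falls Kdm7a alone stayed past it, and listed genes called lower went from 1541 to 494 (18.3%). In either direction 61.1% of listed genes were called with TMM scaling. For the 10 fallers the raw KO counts, over both libraries, were 0.776 to 1.01 times the WT counts, before division by size factors of 1.10 and 1.28 for KO and 0.792 and 0.907 for WT. The members' median log2 fold change was 0.83 without Lats1/2 KO replicate 2 and 0.90 without Lats1/2 KO replicate 1, each fit leaving 1 KO library.

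By symbol, GENCODE M21 holds 276 protein-coding genes that meet the rule, of which 14.5% were listed. The count includes 67 Hist genes, mostly replication-dependent histones whose mRNAs end without a poly(A) tail, and none of these had a row. The libraries were made with an mRNA kit, and its part in this was not tested. Leaving them out, 19.1% of 209 rule genes were listed. The 209 are all annotated genes, whether or not the authors tested them, while the 20.6% above is a share of tested genes. The shares therefore cannot be compared. Genes without a row, among them Ezh2, Suz12, Eed, Hdac1, Dot1l and the Tet and Dnmt3 genes, have no values here.

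Levels per kilobase of exon spanned a wide range on the normalized count scale. In Lats1/2 KO they ran from 41.2 for Atad5 to 1406 for Hmgb2, with Kmt5a at 1086 and Ssrp1 at 1007. In WT they ran from 18.2 for Atad5 to 1557 for Kmt5a, with Hmgb2 at 608 and Ssrp1 at 554. Kmt5a thus led the WT order and Hmgb2 the Lats1/2 KO order.

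**Figure D2:**
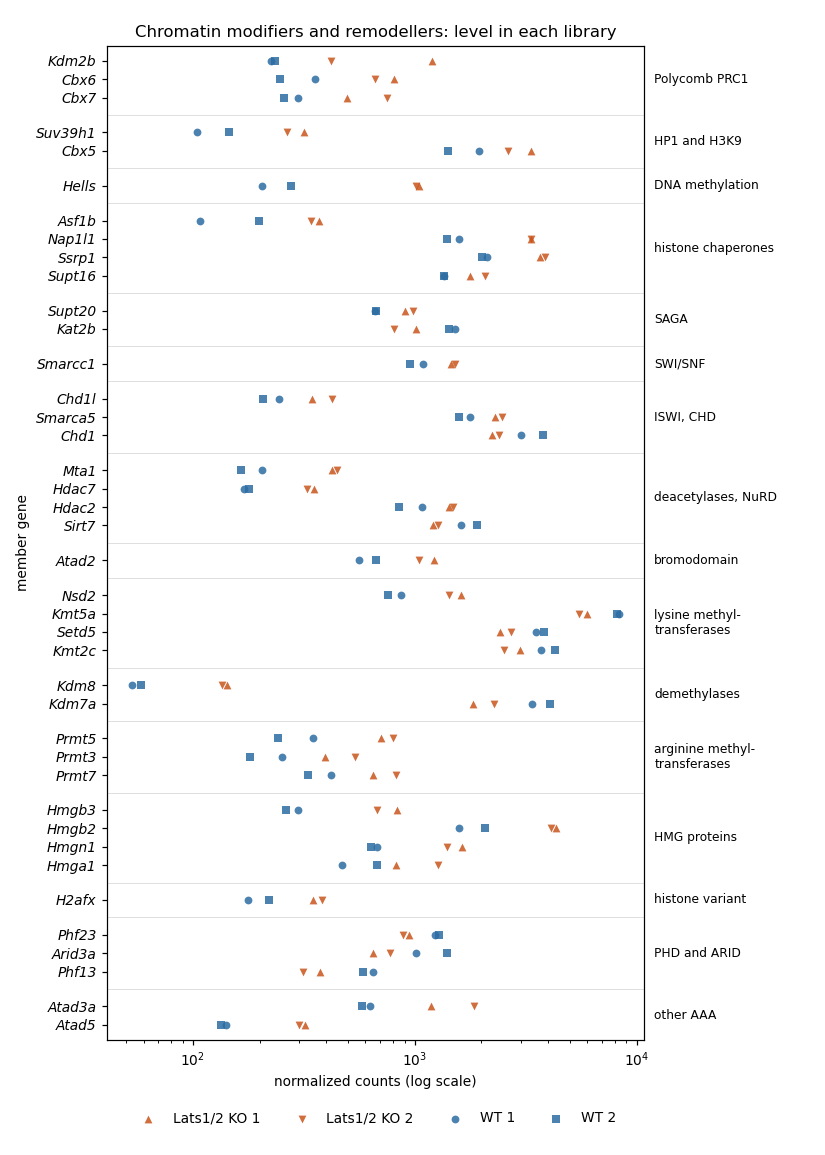
Normalized counts on a log scale (horizontal axis) for each of the 40 members (vertical axis), grouped by role; orange triangles are the 2 Lats1/2 KO libraries and blue circles and squares the 2 WT libraries (upward triangle and circle for replicate 1). The colours do not mix in any row, and groups do not overlap in 99.9% of all listed genes. Orange lies right of blue in 30 rows and left of it in 10, and Kdm2b has the widest gap between the KO libraries.

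Promoter sequence was examined because 30 members moved together. Of the 40 members, 34 matched a RefSeq promoter entry (GRCm38.p6), and the 250 bases before each start were searched on both strands; genes with several starts have several windows, on average 1.46 for risers and 1.22 for all protein-coding genes. Arid3a, Atad2, Atad3a, Chd1, H2afx and Nsd2 were not matched. The letters TTCCCGC, bound by E2F factors of the cell cycle, occurred in 3 of 26 risers (11.5%) and 1 of 8 fallers, against 10.8% of all listed risers and 5.69% of 17492 protein-coding genes. CCAAT, the NF-Y box common in promoters of cell cycle genes, occurred in 13 of 26 risers (50%) and 3 of 8 fallers. Its shares were 43.2% of all listed risers and 39.5% of protein-coding genes. At least 3 CCAAT matches in a window were found in 4 risers (15.4%), namely Prmt5, Hmgb2, Hmgb3 and Asf1b, and in the faller Kmt5a. Genes with such a window made up 6.70% of all listed risers and 3.91% of protein-coding genes. CACGTG, the E-box that MYC binds, occurred in 4 of 26 risers and 0 of 8 fallers. Its shares were 11.0% of all listed risers and 7.61% of protein-coding genes. GGAATG, the TEAD element through which YAP acts, occurred in 3 of 26 risers and 1 of 8 fallers. Its shares were 14.1% of all listed risers and 13.5% of protein-coding genes. Numbers this small describe the windows and no more.

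The windows below are those of risers with a single RefSeq start that hold TTCCCGC or at least 3 CCAAT, shown because they carry the letters just counted, and left out where over 100 bases fall inside the deposited gene span (75 do in Hells, 55 in Prmt5 and 35 in Nap1l1). Capitals mark TTCCCGC and CCAAT on either strand, and each sequence reads 5′ to 3′ on the gene's strand. Hells is at chr19:38930740-38930989 (+), Hmgb3 at chrX:71555667-71555916 (+), Prmt5 at chr14:54517471-54517720 (-), Hmgb2 at chr8:57511593-57511842 (+) and Nap1l1 at chr10:111472977-111473226 (+).
Hells: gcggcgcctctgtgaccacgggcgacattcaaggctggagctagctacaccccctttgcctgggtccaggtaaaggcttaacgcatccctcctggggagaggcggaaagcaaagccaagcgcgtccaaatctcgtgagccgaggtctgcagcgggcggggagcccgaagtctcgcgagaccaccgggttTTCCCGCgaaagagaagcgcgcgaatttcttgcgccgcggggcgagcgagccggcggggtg
Hmgb3: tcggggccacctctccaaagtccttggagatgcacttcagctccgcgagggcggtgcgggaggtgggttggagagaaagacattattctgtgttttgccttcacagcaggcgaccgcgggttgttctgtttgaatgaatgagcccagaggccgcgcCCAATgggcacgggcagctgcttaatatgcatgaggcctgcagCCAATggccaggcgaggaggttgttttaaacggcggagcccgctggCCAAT
Prmt5: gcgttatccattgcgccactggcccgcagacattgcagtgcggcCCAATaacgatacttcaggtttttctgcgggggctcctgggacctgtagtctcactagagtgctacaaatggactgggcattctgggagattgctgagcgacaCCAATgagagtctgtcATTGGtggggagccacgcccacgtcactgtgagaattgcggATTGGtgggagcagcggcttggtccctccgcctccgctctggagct
Hmgb2: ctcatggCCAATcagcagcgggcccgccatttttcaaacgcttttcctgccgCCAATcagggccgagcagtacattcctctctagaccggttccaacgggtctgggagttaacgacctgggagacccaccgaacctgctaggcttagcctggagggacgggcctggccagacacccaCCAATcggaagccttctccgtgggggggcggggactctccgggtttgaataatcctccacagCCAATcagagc
Nap1l1: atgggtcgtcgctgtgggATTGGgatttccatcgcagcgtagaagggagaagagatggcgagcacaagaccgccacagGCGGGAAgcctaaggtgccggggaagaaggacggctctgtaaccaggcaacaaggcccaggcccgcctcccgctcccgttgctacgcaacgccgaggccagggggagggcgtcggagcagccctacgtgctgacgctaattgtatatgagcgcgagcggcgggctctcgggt
Hells and Nap1l1 hold 1 TTCCCGC each, on opposite strands. Hmgb2 has 4 CCAAT boxes in 1 orientation, Hmgb3 has 3, and in Prmt5 the 4 boxes lie on both strands.

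DNA methylation was carried in this set by Hells, which had the largest rise of all members. HELLS, also called LSH, is a SNF2-family remodeller needed for DNA methylation of repeats. The gene (ENSMUSG00000025001, chr19:38930915-38971051) had 1045 and 1012 normalized counts in Lats1/2 KO 1 and 2, against 204 and 276 in WT 1 and 2. The KO libraries were nearly equal and both lay far above WT, a 4.28-fold difference with a log2 fold change of 2.10 ± 0.22 (SE, n = 2 each) and a deposited adjusted p of 8.17e-14. Among 17 genes of the DNA methylation list 5 were listed and all 5 rose. The others of lowest p outside the symbol rule were Uhrf1, which brings the maintenance methyltransferase to newly copied DNA (1260 and 1079 in KO, 236 and 332 in WT, 4.12-fold), Dnmt1, that methyltransferase (2.60-fold), and Cdca7, which works with HELLS (3.31-fold).

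Histone chaperones rose almost throughout, with 14 of 15 listed genes higher out of 29 in the list, and 4 of 4 members. Nap1l1 (ENSMUSG00000058799, chr10:111473192-111498142), a chaperone of H2A and H2B, had 3355 and 3357 normalized counts in KO 1 and 2, against 1582 and 1404 in WT 1 and 2. Its groups lay far apart beside their spread, with a log2 fold change of 1.17 ± 0.14 (SE, n = 2 each) and a deposited adjusted p of 3.05e-10. The FACT complex, which loosens nucleosomes for polymerases, consists of SSRP1 and SPT16. Ssrp1 was at 3671 and 3854 in KO and 2118 and 2021 in WT, a log2 fold change of 0.86 ± 0.13. Supt16, its partner, was at 1772 and 2075 in KO and 1363 and 1361 in WT, or 0.50 ± 0.16. Of the Supt16 exon bases, 21.0% are shared with Rpgrip1 on the opposite strand. Both FACT subunits rose. Whether they differed from each other was not tested. Asf1b, the H3-H4 chaperone of dividing cells, was at 371 and 342 in KO and 107 and 200 in WT, where the WT libraries differed 1.86-fold, the widest WT gap of any member. Its log2 fold change was 1.21 ± 0.35. Outside the symbol rule, the CAF-1 subunits that receive histones from ASF1 led by p: Chaf1a averaged 457 ± 35.6 in KO and 116 ± 28.1 in WT (SD, n = 2), and Chaf1b 368 ± 5.59 and 116 ± 15.6. Npm1, an abundant nucleolar chaperone, rose 1.87-fold. The exception to the direction was Spty2d1, at 1232 and 1091 in KO and 1673 and 1647 in WT (TMM adjusted p of 0.37 in edgeR), which is named after its value was seen.

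HMG proteins bend DNA or bind nucleosomes and keep chromatin open to other factors. Of 10 genes in their list 4 were listed and all 4 rose. Hmgb3 was at 832 and 675 normalized counts in KO 1 and 2, against 297 and 262 in WT 1 and 2, a log2 fold change of 1.43 ± 0.22 (SE, n = 2 each; deposited adjusted p of 9.47e-07). Hmgb2 (ENSMUSG00000054717, chr8:57511843-57515999), a marker of proliferating cells, was at 4343 and 4101 in KO and 1580 and 2070 in WT, a 2.31-fold difference. Hmgn1, a nucleosome-binding protein, was at 1638 and 1394 in KO and 679 and 637 in WT, a 2.30-fold difference. In each of these 3 genes both KO libraries lay well above both WT libraries, where groups did not overlap in 99.9% of all listed genes. Hmga1 was at 822 and 1279 in KO and 469 and 677 in WT, so its groups lay close together. Its log2 fold change of 0.87 ± 0.30 became 0.52 without Lats1/2 KO replicate 2, and 79.8% of its longest transcript matches the near-identical gene Hmga1b, between which reads could be divided.

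Polycomb complexes keep developmental genes silent; PRC1 reads and ubiquitinates, PRC2 methylates H3. All 3 PRC1 members rose. Kdm2b (ENSMUSG00000029475, chr5:122870665-122989823), which recruits a variant PRC1 to CpG islands and demethylates H3K36, was at 1202 and 421 normalized counts in KO 1 and 2, against 226 and 235 in WT 1 and 2. KO 1 stood 2.85-fold above KO 2, the widest gap between KO libraries of any member, and the mean of 812 ± 552 (SD, n = 2) leaves the size of the rise poorly known: the log2 fold change was 1.82 ± 0.50 (SE), 0.87 without Lats1/2 KO replicate 1 and 2.38 without Lats1/2 KO replicate 2. RefSeq gives Kdm2b several starts, and the count does not separate its forms. Cbx6, a chromodomain subunit of PRC1, was at 807 and 664 in KO and 357 and 246 in WT, a log2 fold change of 1.29 ± 0.26. Cbx7, another, was at 498 and 749 in KO and 299 and 257 in WT, or 1.17 ± 0.27. They lie 81118 bases apart on chromosome 15, which holds 5 members (12.5%, with Cbx5, Atad2 and Hdac7) and 4.11% of listed genes. Genes outside the symbol rule went both ways: Pcgf3, a subunit of variant PRC1, was at 3865 and 3520 in KO and 7859 and 9280 in WT, Rybp fell 1.56-fold (TMM adjusted p of 0.13 in edgeR) and Pcgf6 rose 1.71-fold. Of PRC2 no member had a row. Epop, an accessory subunit, averaged 574 ± 77.4 in KO and 1754 ± 42.2 in WT, and the shared histone-binding subunits Rbbp7 and Rbbp4 rose 1.61-fold and 1.37-fold.

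Heterochromatin genes were higher in 4 of 4 listed cases out of 14. Suv39h1, which methylates H3K9 and so creates the mark that HP1 binds, was at 318 and 266 normalized counts in KO, against 105 and 146 in WT (log2 fold change 1.22 ± 0.30, SE). Cbx5, which encodes HP1 alpha, was at 3333 and 2639 in KO and 1959 and 1408 in WT (0.83 ± 0.22). For both, the lower KO library lay above the higher WT library, but groups did not overlap in 99.9% of all listed genes. Trim28, the corepressor that recruits H3K9 methylation, rose 1.79-fold, and Atrx 1.36-fold.

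All 3 listed arginine methyltransferases rose, out of 12 in their list. Prmt5 (ENSMUSG00000023110, chr14:54507187-54517525), the main enzyme of symmetric dimethylation, was at 702 and 800 normalized counts in KO 1 and 2, against 347 and 242 in WT 1 and 2, a log2 fold change of 1.35 ± 0.25 (SE, n = 2 each; deposited adjusted p of 6.62e-05). Prmt3, a largely cytoplasmic enzyme that methylates a ribosomal protein, was at 395 and 539 in KO and 252 and 182 in WT, or 1.10 ± 0.29. Prmt7, a monomethylating enzyme, was at 650 and 822 in KO and 420 and 332 in WT, or 0.97 ± 0.23. In all 3 genes KO 2 was the higher KO library and WT 1 the higher WT library.

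Among nucleosome remodellers, 3 members rose and 1 fell. Of the SWI/SNF list of 25, 3 genes were listed and rose, and of the ISWI, CHD and INO80 list of 34, 5 were listed, 4 higher and 1 lower. Smarcc1, a core SWI/SNF subunit and the one member of that list, was at 1465 and 1515 normalized counts in KO and 1087 and 949 in WT (log2 fold change 0.55 ± 0.16, SE), and outside the symbol rule Bcl7a and Actl6a rose 2.82-fold and 1.81-fold. Smarca5, the ISWI ATPase, was at 2306 and 2476 in KO and 1773 and 1584 in WT (0.51 ± 0.15). Smarca5 has 6 processed copies in the genome, up to 51.6% of its transcript at over 95% identity. Chd1l, a remodeller activated by poly(ADP-ribose) at DNA breaks, was at 344 and 424 in KO and 245 and 206 in WT (0.77 ± 0.25). Chd1, which binds H3K4-methylated nucleosomes behind RNA polymerase, went the other way, at 2242 and 2403 in KO and 3017 and 3793 in WT (-0.55 ± 0.16), with a TMM adjusted p of 0.27 in edgeR. The AAA ATPases Ruvbl2 and Ruvbl1, shared by INO80-type remodellers and other complexes, rose 2.71-fold and 2.54-fold.

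Deacetylase complexes had 3 members higher and 1 lower. Mta1, a subunit of the NuRD complex, was at 422 and 448 normalized counts in KO, against 206 and 165 in WT (log2 fold change 1.23 ± 0.24, SE). Hdac2, a class I enzyme and a catalytic subunit of NuRD, was at 1422 and 1489 in KO and 1075 and 847 in WT (0.60 ± 0.18). Hdac7, a class IIa enzyme, was at 350 and 327 in KO and 170 and 179 in WT (0.96 ± 0.23). Sirt7, a nucleolar deacetylase, was at 1215 and 1274 in KO and 1613 and 1909 in WT (-0.50 ± 0.16; TMM adjusted p of 0.42 in edgeR). Outside the symbol rule the corepressor gene Rcor1 fell 1.60-fold (TMM adjusted p of 0.083 in edgeR).

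Lysine methyltransferases split, with 1 member higher and 3 lower. Nsd2, which dimethylates H3K36, was at 1618 and 1430 normalized counts in KO 1 and 2, against 864 and 758 in WT 1 and 2, a log2 fold change of 0.91 ± 0.17 (SE, n = 2 each; deposited adjusted p of 1.07e-04). Kmt5a (ENSMUSG00000049327, chr5:124439930-124462308), which monomethylates H4K20, was at 6007 and 5516 in KO and 8348 and 8181 in WT. Kmt2c, an H3K4 enzyme of enhancers, was at 2982 and 2517 in KO and 3697 and 4280 in WT. Setd5, a SET-domain protein, was at 2415 and 2715 in KO and 3518 and 3844 in WT. The 3 falls were alike in size, -0.52 ± 0.12, -0.54 ± 0.15 and -0.52 ± 0.14 on the log2 scale. None was called with TMM scaling, which shrinks falls (edgeR adjusted p from 0.25 to 0.29). Outside the symbol rule the methyltransferase Smyd2 rose 2.58-fold, Wdr5, a core subunit of H3K4 methyltransferases, rose 1.84-fold, and Prdm9 fell 1.77-fold (TMM adjusted p of 0.062 in edgeR).

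Demethylase members were Kdm2b, described with Polycomb, Kdm8 and Kdm7a. Kdm8, a JmjC-domain dioxygenase, had the lowest counts of the set, 143 and 136 normalized counts in KO and 53.0 and 58.5 in WT, and rose 2.50-fold. Kdm7a (ENSMUSG00000042599, chr6:39136623-39206789), which demethylates H3K9 and H3K27, was at 1835 and 2286 in KO and 3376 and 4069 in WT. Its log2 fold change was -0.85 ± 0.18 (SE, n = 2 each, deposited adjusted p of 9.02e-04). Kdm7a was the fall still called with TMM scaling (edgeR adjusted p of 0.045). It lost its call with DESeq2 size factors from the listed genes, at a log2 fold change of -0.44.

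Acetyltransferases and readers held the remaining 4 falls. Kat2b, the SAGA-type acetyltransferase PCAF, was at 1011 and 807 normalized counts in KO, against 1518 and 1426 in WT (log2 fold change -0.70 ± 0.18, SE). The processed pseudogene Kat2b-ps matches 53.3% of its longest transcript. Supt20, another SAGA subunit, went up, at 901 and 988 in KO and 665 and 673 in WT (0.50 ± 0.17), as did Sgf29 and Usp22 outside the symbol rule (2.06-fold and 1.54-fold). Atad2, a bromodomain ATPase of S-phase cells, was at 1220 and 1047 in KO and 562 and 666 in WT (0.88 ± 0.19). All 3 listed PHD and ARID readers, of 19, fell. Phf13, a reader of H3K4 methylation, was at 373 and 313 in KO and 649 and 587 in WT (-0.85 ± 0.21). Arid3a, an AT-rich DNA-binding factor, was at 650 and 771 in KO and 1016 and 1405 in WT (-0.77 ± 0.22). Phf23 was at 939 and 889 in KO and 1234 and 1288 in WT (-0.46 ± 0.15), the smallest change of the set. With TMM scaling the edgeR adjusted p of these 4 falls ranged from 0.097 to 0.54.

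The remaining members were a histone variant and ATPases named for their domain. H2afx, the histone phosphorylated at DNA breaks, was at 347 and 381 normalized counts in KO, against 177 and 221 in WT (log2 fold change 0.87 ± 0.24, SE); outside the symbol rule the centromeric histone gene Cenpa rose 2.32-fold. Atad5, which unloads the replication clamp PCNA, was at 320 and 302 in KO and 141 and 133 in WT, a 2.26-fold difference. Atad3a encodes a protein of the mitochondrial inner membrane and meets the rule by its symbol only; it was at 1184 and 1847 in KO and 631 and 581 in WT. The processed pseudogene Gm4740 matches 73.4% of its longest transcript. Without Atad3a 29 members rose.

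**Figure D3:**
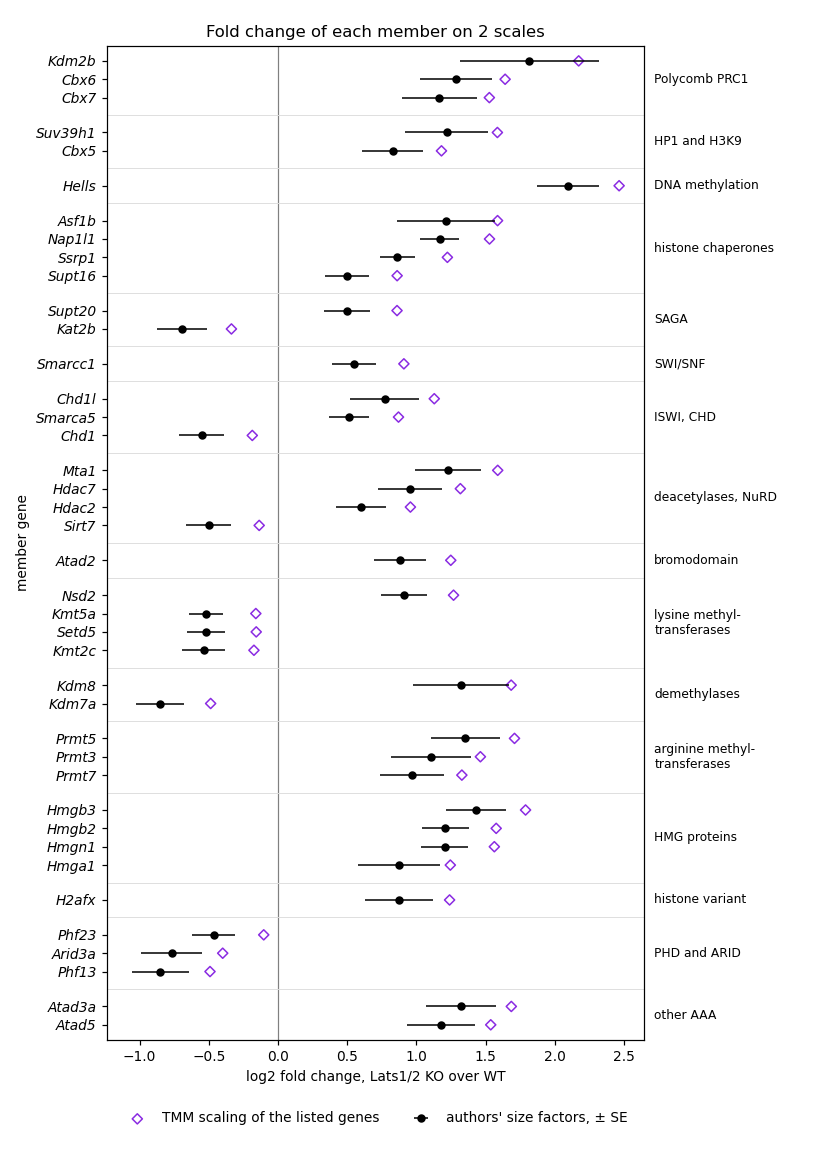
Log2 fold change of Lats1/2 KO over WT (horizontal axis) for each member (vertical axis), grouped by role; filled points with bars are estimates on the authors' size factors ± SE, open diamonds those with TMM scaling of the listed genes. Diamonds sit about 0.36 to the right of the points, so the 10 falls come to lie between -0.49 and -0.10 while the 30 rises reach at least 0.86.

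Across the 16 role lists, 130 genes that the symbol rule does not match were also looked up. Of these 36 were listed, 30 higher and 6 lower, with a median log2 fold change of 0.83. Over all listed genes 42.9% were higher and the median was -0.50. The role lists were chosen with earlier results of these data known, so their direction is not independent evidence. Direction differed by role in the plot of listed genes per list: chaperones, DNA methylation, heterochromatin, arginine methyltransferases, SWI/SNF and HMG genes were higher in all or all but 1 of their listed genes, while lysine methyltransferases (4 of 8), PHD and ARID readers (3 of 3), Polycomb (3 of 9) and deacetylase complexes (2 of 6) held more than 1 fall each. Demethylases, ISWI and CHD remodellers, SAGA and acetyltransferases held 1 fall each, Kat2b being counted in both of the last lists. No test was made of these shares.

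**Figure D4:**
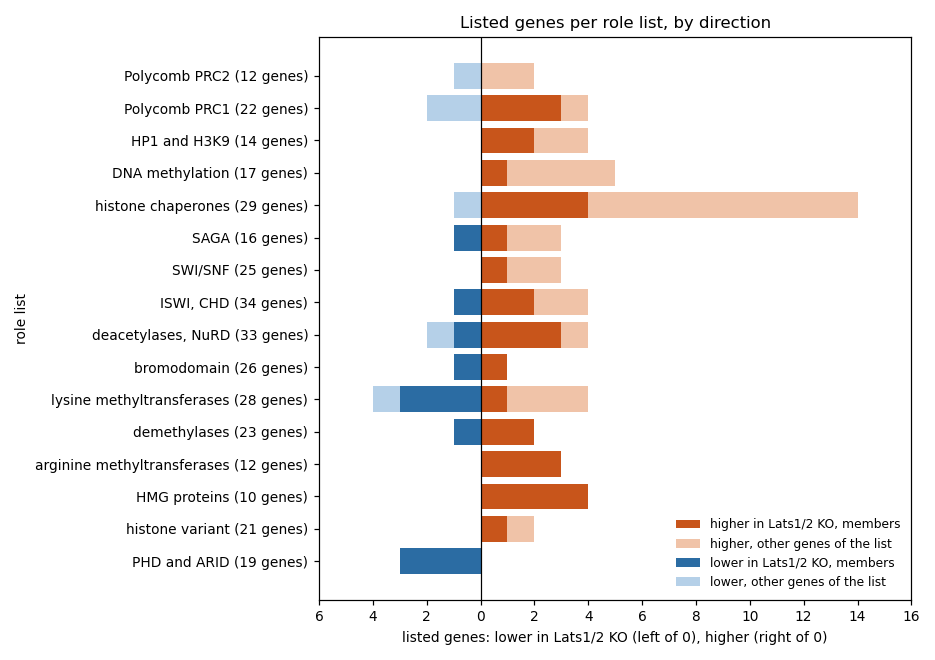
Number of listed genes in each role list (vertical axis, with the size of the list), to the right of 0 when higher in Lats1/2 KO and to the left when lower; dark bars are members and pale bars other genes of the list. Chaperones have the longest bar, 14 higher and 1 lower, and PHD and ARID readers have 3 lower and none higher.

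Cycling cell and interferon genes were looked up beside the members. Both lists were chosen with earlier results of these data known, and all 18 genes of each had a row. The shared direction within each list is therefore not independent evidence. All 18 genes of the cycling cell list rose, and their summed level was 33145 and 37182 normalized counts in KO 1 and 2, against 11212 and 17243 in WT 1 and 2. The smallest deposited adjusted p in it were those of the replicative helicase genes Mcm7, Mcm2 and Mcm6, which rose 3.34-fold, 3.50-fold and 2.43-fold. The summed level of the 30 rising members was 37796 and 37799 in KO and 20013 and 18976 in WT. This sum joins risers of opposite WT order: Hells, Hmgb2 and Asf1b were higher in WT 2, and Cbx5, Nap1l1 and Prmt5 in WT 1. All 18 interferon-stimulated genes fell, with the smallest deposited adjusted p for Rtp4, Gbp2 and Irf7, and their sum was 3677 and 2965 in KO and 11236 and 33442 in WT, with WT 2 standing apart. The 10 falling members summed to 19669 and 19492 in KO and 27986 and 30783 in WT. The part of the cycling, interferon and epithelial programs in the members' changes was not tested.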

How the data were processed

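Read counts in the deposited table are whole numbers for each gene and library. Beside them stand the authors' DESeq2 columns, per the file headers: base mean (a signal on the normalized count scale), log2 fold change with standard error, Wald statistic (a score), p-value and adjusted p-value. The submitters' processing notes name TopHat2 2.1.1, HTSeq, DESeq2 and GRCm38 without settings. The kit marks strand, per the labels, but HTSeq's strand setting is unknown: 13 members share at least 100 exon bases with a gene on the opposite strand, and 9 have a copy elsewhere with at least 300 bases at 95% identity or more (BLAST 2.17.0), which counting could split.

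Size factors were recovered from base means and counts, with a largest deviation of 0.0119%. Symbols and exon lengths come from GENCODE M21 (2698 of 2701 IDs matched). Log2 fold changes are from edgeR 4.0.16 (quasi-likelihood, genotype alone, Benjamini-Hochberg over the listed genes), and SE is the fold change divided by the root of F. The spread was estimated from selected genes, so SE may be too small. Deposited log2 fold changes are shrunken (slope 0.775 on the log2 ratio of means). "Rose" and "fell" are the authors' calls. The fit was tested on simulated data. Members and lists were chosen with earlier results of these data known. Library values were due for up to 6 members per list by deposited adjusted p and for the 10 largest changes either way at a base mean of at least 50, and up to 3 genes per list outside the rule are named. Some genes that this rule would name are not reported here. Alternatives were TMM and DESeq2 1.42.0 size factors, DESeq2's test, no low-count filter, a replicate block, each library left out, and narrower membership.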

Additional observations from a re-analysis of the deposited data

How the results depend on the processing

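The median log2 fold change of the 40 members was 0.88; it moved to 1.25 with TMM scaling and 1.29 with DESeq2 size factors from the listed genes, and without single libraries it ranged from 0.83 to 0.90. No member changed direction under any alternative run. Of members called by edgeR, 30 were higher and 10 lower; with TMM scaling the lower count was 1 and with DESeq2 size factors from the listed genes 0, while 30 stayed higher under both. Over all listed genes 1541 were called lower, against 494 with TMM scaling and 432 with DESeq2 size factors; both scalings assume that most genes do not change, which a table of called genes does not meet. Leaving out 1 library in turn, members called higher ranged from 0 to 28 and lower from 0 to 9, and all listed genes called higher from 4 to 1038 and lower from 1 to 1416. The lowest counts were without Lats1/2 KO replicate 2, and the cause was not tested. In either run without a KO replicate, the 1 KO library left is assumed to vary like WT. Without the filter, with DESeq2's test, without Atad3a, and at a base mean of at least 100, counts of members stayed at 29 or 30 higher and 10 lower. The replicate numbers are not stated to pair libraries, and deviations of same-numbered libraries correlated at -0.161 across 2701 genes. With a replicate block 27 members were called higher and 8 lower, and over all listed genes 1084 higher and 1451 lower. No value was listed for genes beyond the authors' threshold. Members had 42 to 7418 counts per library, and whether depth limited which rule genes were listed was not tested.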
